A study of Saccharomyces cerevisiae with 16 samples.

Results

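The PAU (seripauperin) genes of budding yeast form a large family of closely related genes, and most copies lie near chromosome ends. The members described here are 10 of the 6247 open reading frame (ORF) features on the arrays, found by the systematic names of PAU1 to PAU7, PAU14, PAU18 and PAU19. In the gene order of the R64 reference, 7 of them are within the outermost 5 ORFs of a chromosome arm. These are PAU1 (YJL223C), PAU3 (YCR104W), PAU4 (YLR461W), PAU6 (YNR076W), PAU14 (YIL176C), PAU18 (YLL064C) and PAU19 (YMR325W). The inner 3 are PAU7 (YAR020C), 15 ORFs from the right end of chromosome I, PAU2 (YEL049W), 30 ORFs from the left end of V, and PAU5 (YFL020C), 46 ORFs from the left end of VI. No coordinates are given, because no source used here names the genome build behind the arrays.

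The series measured, by chromatin immunoprecipitation on two-colour arrays of PCR products (ChIP-chip), where MYC-tagged replication proteins sit on DNA, with the question of where replication forks pause. All cultures were haploid W303a grown asynchronously in rich medium (YEPD) to an optical density of 0.25 and fixed with formaldehyde, and DNA pulled down through the MYC tag (the IP) was hybridised against total genomic DNA (the input). The groups were DNA Pol2-13MYC cells labelled rrm3 delete (6 arrays: 040, 137, 182, 183, 239 and 240), Rrm3-13MYC cells (5 arrays: 031, 041, 088, 184 and 185) and DNA Pol2-13MYC cells with wild-type RRM3 (4 arrays: 039, 086, 136 and 230). Pol2 is the subunit of DNA polymerase epsilon that makes new DNA, and Rrm3 is a helicase that helps forks past protein-bound DNA. At least 1 dye swap per experiment was a technical replicate by the series' design, and the labels do not tie arrays to extracts. The p-values therefore reflect differences between arrays, some of which may come from the same culture.

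The PAU proteins are small and rich in serine and alanine, and they belong with the DAN, TIR and TIP1 proteins to a group of cell wall mannoproteins. Their genes are known to be kept off by oxygen and haem and to be used in fermentation without oxygen, so in aerated rich medium they are mostly silent. The copies are so alike that DNA from one can bind the spot of another, and these data cannot tell apart what each copy and its relatives added to a spot.

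All values are log2 ratios of IP over input centred on the array's median, so 0 stands for the middle feature of an array and 1 for 2-fold above it. A few arrays stood apart. The RRM3 feature itself ranked at percentile 0.977 to 2.20 of the input signal on arrays 137, 182, 183 and 240, but at 49.7 on array 239, which goes against its label, and its spot carried a quality flag on array 040. In the Rrm3 IP it ranked at 29.4 to 94.6 and in wild type at 30.9 to 90.3. Hence the first group is called the arrays labelled rrm3 delete throughout. On arrays 182 and 136 a quality flag removed 54.0% and 49.7% of spots, and array 136 was read in the direction of the deposited table, opposite to its label. The label text of array 086 also names an antibody to a histone mark. Arrays 031 and 041 had another layout, and the standard deviation over all ORFs was 1.06 on array 031, against 0.373 to 0.677 on the others.

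On the arrays labelled rrm3 delete, all 10 PAU genes had a fitted Pol2 IP above the array median, by 0.26 to 0.42 (median 0.33). None passed the test against 0 (limma with Benjamini-Hochberg adjustment over 12380 features, threshold 0.05), while 16.3% of all features did. The smallest adjusted p was 0.127, for PAU5, and PAU5 and PAU7 were the 2 with an unadjusted p under 0.05. The median over all ORFs tested was 0.02 on this scale.

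PAU7, a copy on the short chromosome I, had log2 ratios from 0.20 to 0.73 with a median of 0.32 on the 6 arrays. PAU5, whose protein is known to protect cells against a killer toxin, ran from 0.04 to 0.71 with a median of 0.37. Every array was thus above 0 for both. PAU3 was at 0.51, 0.57, 0.40, 0.35 and 0.24 on arrays 040, 137, 183, 239 and 240. PAU18 spread most among the end copies, from -0.29 to 1.22, with 2 of 6 arrays below 0. The fit shares one spread over all groups, array 031 of the Rrm3 IP included. Without that array 5 of the 10 were called higher, namely PAU3, PAU5, PAU6, PAU7 and PAU19, at fitted ratios of 0.29 to 0.42, where 14.5% of all features were called higher in the same fit.

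In wild type the same genes lay around the array median in the Pol2 IP. Fitted ratios ran from -0.39 for PAU14 to 0.31 for PAU2, with a median of -0.05 and 8 of 10 below 0. None was called, against 3.3% of all features, and none had an unadjusted p under 0.05. All 7 end copies were fitted at or below 0, from -0.39 to -0.002, and PAU2 and PAU5 were the 2 members fitted above it. The fit includes a dye effect, and the array values were less uniform. PAU6 and PAU18 were above 0 on 2 of 3 wild-type arrays, with medians of 0.07 and 0.06. The medians of the other end copies were below 0.

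**Figure D1:**
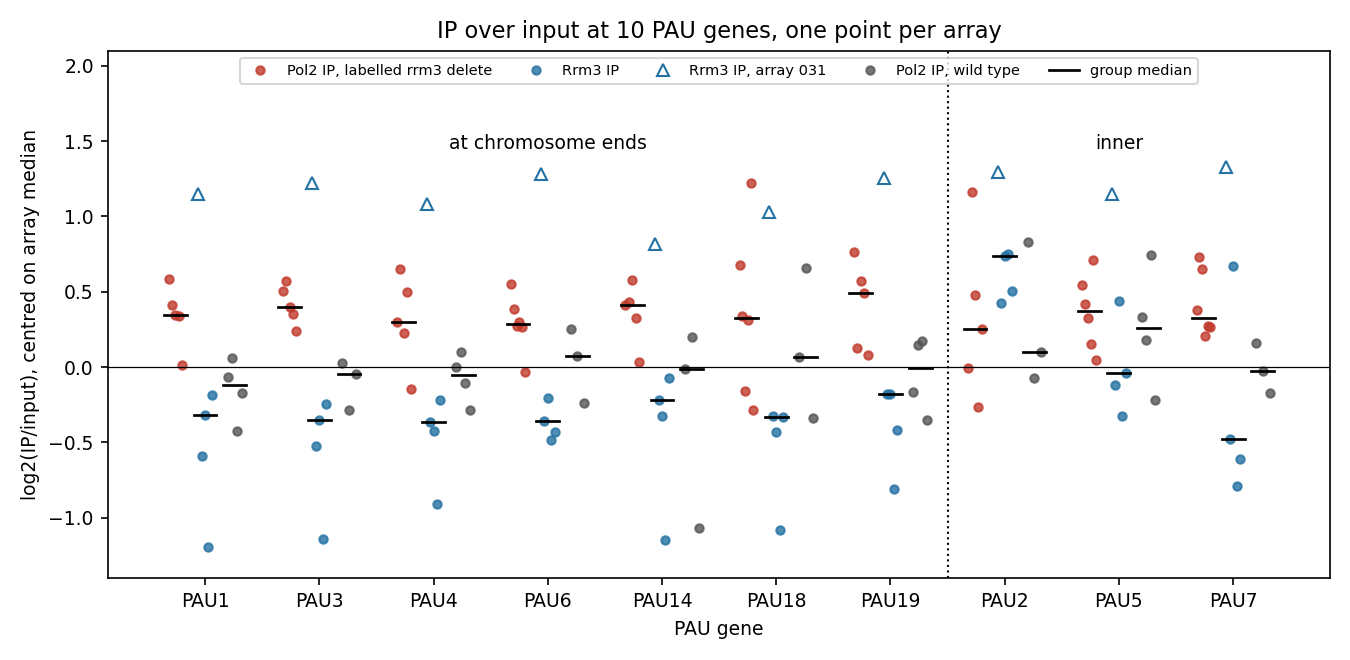
Log2 IP over input, centred on each array's median (y axis), for the 10 PAU genes (x axis; 7 at chromosome ends left of the dotted line, 3 inner to its right). Each point is 1 array, red for Pol2 arrays labelled rrm3 delete, blue for the Rrm3 IP and grey for wild type; bars are group medians and open triangles mark array 031, which lies between 0.82 and 1.33 at every member.

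Set against wild type directly, the arrays labelled rrm3 delete had more Pol2 IP at 9 of the 10 members, by a fitted -0.01 (PAU2) to 0.69 (PAU14) with a median of 0.38. No member passed the test, where 0.557% of all features did, and none had an unadjusted p under 0.05. For PAU14 the ratios were 0.41, 0.43, 0.58, 0.33 and 0.04 on arrays 040, 137, 183, 239 and 240 labelled rrm3 delete, against -0.01, 0.20 and -1.07 on wild-type arrays 039, 086 and 230. The groups overlap there, and the lowest value is that of array 230. The difference was 0.69 with a 95% interval of -0.002 to 1.38 and an adjusted p of 0.912.

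Values of the groups did not overlap for PAU3 and PAU7, so 2 of 10 members, where 4.82% of all features tested had every array labelled rrm3 delete above every wild-type array. PAU3 was at 0.03, -0.29 and -0.05 on wild-type arrays 039, 136 and 230, all below the lowest value of 0.24 in cells labelled rrm3 delete. PAU7 was at 0.16, -0.03 and -0.17 on wild-type arrays 039, 086 and 230, below its lowest value of 0.20 in cells labelled rrm3 delete. The fitted differences were 0.40 ± 0.36 (SE) for PAU3 and 0.52 ± 0.34 for PAU7, both with an adjusted p of 0.9997. Across the 10 members the upper ends of the 95% intervals lay between 0.63 and 1.38, so differences of up to that size lie within the error of these arrays. At no setting tried was a member called in this comparison.

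The Rrm3 IP gave 1 call among the 10, PAU2, which was higher than the array median by 0.76 ± 0.20 (SE; adjusted p = 0.0150), where 23.7% of all features passed. The other members were fitted between -0.31 and 0.18, and all 7 end copies below 0. PAU2 was at 1.29, 0.42, 0.74, 0.75 and 0.50 on arrays 031, 041, 088, 184 and 185. It was thus above 0 on all 5.

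At the end copies array 031 stood apart from the rest of the group. PAU1 had a log2 ratio of 1.15 on array 031, and of -0.59, -0.32, -1.19 and -0.19 on arrays 041, 088, 184 and 185. PAU6 had 1.28 on array 031 and -0.36, -0.20, -0.49 and -0.43 on the same 4 arrays. The other end copies showed the same split, at 0.82 or more on array 031 and below 0 on every other Rrm3 array. The inner PAU7 and PAU5 were above 0 on array 088 too, at 0.67 and 0.44, and below 0 on arrays 041, 184 and 185. Without array 031, 6 members were called: PAU1, PAU3, PAU4, PAU6 and PAU18 were lower, by -0.57 to -0.37, and PAU2 stayed higher at 0.60. In that fit 13.2% of all features were called lower and 25.7% in either direction. Without arrays 031 and 041, which share the other layout, the 3 called were PAU1, PAU3 and PAU4, where 24.8% of all features were.

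In the difference between the Rrm3 IP and wild-type Pol2 IP no member was called, and 0.00808% of all features were. Fitted differences ran from -0.30 to 0.44. Rrm3 IP minus Pol2 IP on the arrays labelled rrm3 delete was below 0 at 9 of 10 members, from -0.66 (PAU18) to -0.18 (PAU5), and 0.45 at PAU2, with no call where 2.37% of all features had one (1.94% lower). Without array 031 it was called lower at 6 end copies, PAU1, PAU3, PAU4, PAU6, PAU18 and PAU19, by -0.96 to -0.66, where 3.17% of all features were called lower in the same fit. This difference and that between the arrays labelled rrm3 delete and wild type share the arrays labelled rrm3 delete.

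PAU2 also stood apart as a spot. It is the 1 member of which no product is free of a recorded PCR failure, and none of the 13 other PAU ORFs on the array is in that position. Averaged over its spots on an array, its input signal lay at percentile 0.310 to 35.4 of all spots (median 10.2). The highest single spot of PAU2 was at 67.3. The medians of the other members, averaged in the same way, were 57.7 to 98.3. Features recorded as failed were higher in the Rrm3 IP more often than the rest, 295 of 742 (39.8%; median ratio 0.44) against 1064 of 11638 (9.14%; median -0.04). The part of the failed product in the PAU2 call was not tested.

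PAU5 offers the same gene on 2 products, 1 recorded as failed with a median input percentile of 16.2 and 1 not, at 99.3. The failed product read higher than the other on 10 of 13 arrays, with a median difference of 0.39 on the log2 scale and a range from -0.53 to 1.24. It read lower on arrays 040 (-0.14), 137 (-0.24) and 183 (-0.53), all labelled rrm3 delete, and higher on 239 (0.27) and 240 (0.16). The product with no failure recorded read 0.61, 0.54, 0.42, 0.57 and -0.04 on arrays 040, 137, 183, 239 and 240. On wild-type arrays 039, 086 and 230 it read 0.03, 0.09 and -0.41. With failed products left out, the fitted Rrm3 IP at PAU5 was -0.12 instead of 0.18, and its wild-type Pol2 IP -0.16 instead of 0.26. PAU19, the other member with 2 products, has none recorded as failed, and its products differed by a median of 0.03 with 7 of 13 arrays above 0.

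**Figure D2:**
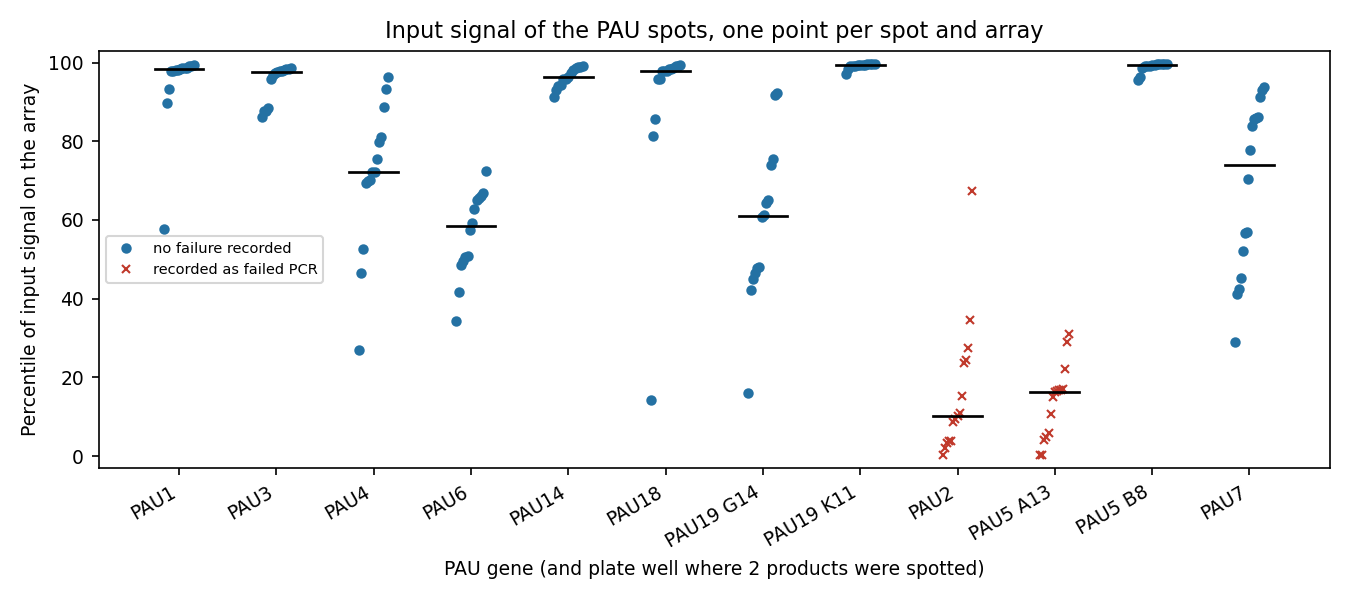
Percentile of the input signal among all spots of an array (y axis) for each PCR product of the 10 PAU genes (x axis; the plate well is given where 2 products were spotted). Each point is 1 spot on 1 array, crosses are products recorded as failed, and black bars are medians, which reach 10.2 for PAU2 against 98.3 for PAU1.

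End and inner copies were compared on each array. The median of the end copies minus that of the inner copies ran from -0.60 to 0.14 on the arrays labelled rrm3 delete (median 0.04, 3 of 6 above 0). It ran from -0.995 to -0.14 on the Rrm3 arrays (median -0.24, 0 of 5 above 0) and from -0.94 to 0.15 in wild type (median -0.22, 1 of 4 above 0). The lowest value on the arrays labelled rrm3 delete, -0.60, is that of array 182, where 2 of the 7 end copies were measured. The inner median rests on at most 3 genes. On array 136, which gives the lowest wild-type value of -0.94, it rests on PAU5 alone, read from its failed product. With failed products left out, the median difference became -0.08 on the arrays labelled rrm3 delete, 0.06 in the Rrm3 IP and 0.005 in wild type. These are descriptions with no test.

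**Figure D3:**
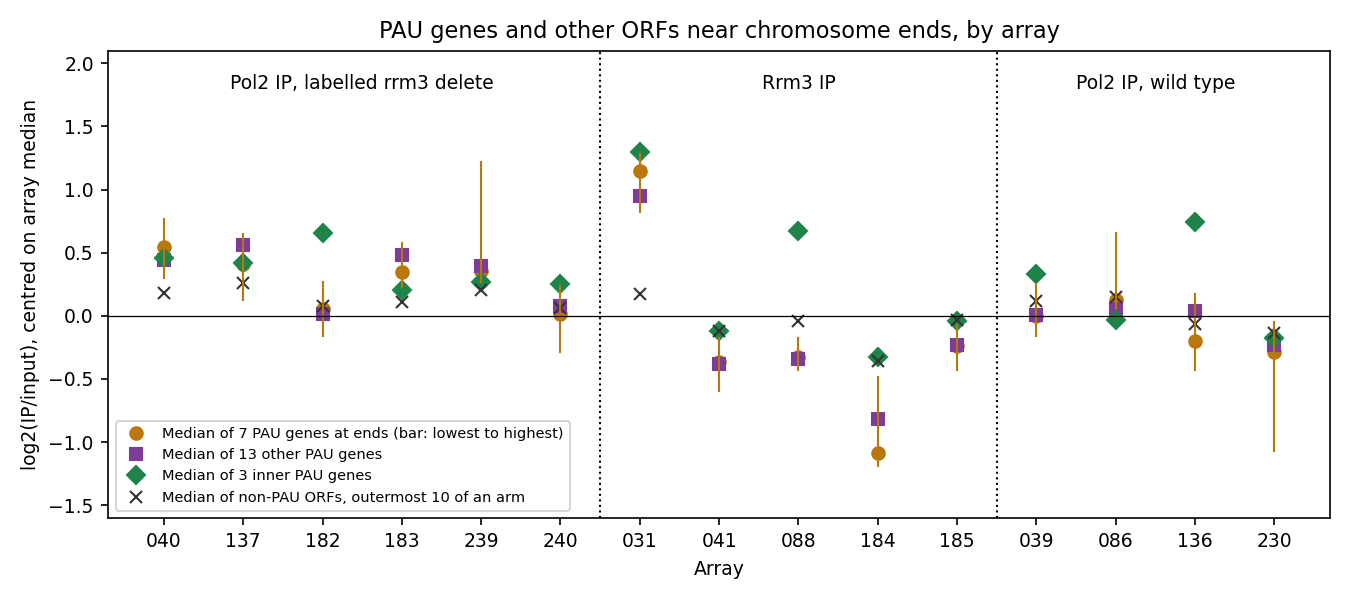
Median log2 IP over input (y axis) on each of the 15 arrays (x axis) for PAU genes at chromosome ends, other PAU genes, inner PAU genes and non-PAU ORFs among the outermost 10 of an arm; vertical bars run from the lowest to the highest end copy. The end copies stay together on an array and move from array to array, from -1.08 on array 184 to 1.15 on array 031.

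The end copies resembled each other more than ORFs of an array usually do. Within an array their standard deviation was 0.0983 to 0.331 (median 0.167), against 0.368 to 0.979 (median 0.497) for non-PAU ORFs among the outermost 10 of an arm and 0.373 to 1.06 (median 0.472) for all ORFs. Between arrays they shifted jointly: Pearson's r over 12 to 14 arrays had a median of 0.88 over the 21 pairs of end copies and a range from 0.79 to 0.99. Without arrays 031 and 184, the 2 farthest from the median, it was 0.76 (0.66 to 0.97). For pairs of an end and an inner copy the median was 0.70, and 0.39 without those arrays. The pairs share arrays and near-identical DNA, so they are no independent observations.

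Input signal was high at these genes. The median member lay at percentile 78.1 and the median end copy at 96.4, the other PAU ORFs at 72.8, and the 422 non-PAU ORFs of a similar length (300 to 450 bases) at 42.3. Averaged over the spots of a gene, PAU1 (98.3), PAU18 (97.9), PAU3 (97.6) and PAU14 (96.4) were the brightest 4, and PAU6 (58.4) the dimmest at an end. Taken singly, 1 product of PAU19 (99.4) and 1 of PAU5 (99.3) had higher medians than these.

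Another 13 PAU ORFs were on the array. On the arrays labelled rrm3 delete all 13 were fitted above 0 (median 0.36), and PAU17 (YLL025W), 39 ORFs from an end, was called at 0.79 ± 0.20 (SE; adjusted p = 0.0109), 1 of 13 where 16.3% of all features were called. PAU17 ran from 0.21 to 1.36 on those 6 arrays, and in wild type from -0.23 to 0.28. Against wild type all 13 were higher, by 0.05 (PAU22) to 0.68 (PAU17) with a median of 0.47, and none was called. The groups did not overlap at PAU11, PAU12, PAU13, PAU16 and PAU20, 5 of 13, where 4.82% of all features had every array labelled rrm3 delete above wild type. In the Rrm3 IP 11 of 13 were below 0 (median -0.20), with no call. PAU9 was not analysed here.

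Relatives outside the family were read from a list of DAN, TIR and TIP1 genes, cell wall mannoproteins of which several are likewise used without oxygen. Of 7, DAN4 (YJR151C) was called on the arrays labelled rrm3 delete, at 0.86 ± 0.10 (SE; adjusted p = 3.2e-05), while the other 6 were fitted from 0.05 (DAN1) upwards without a call. That is 1 of 7, near the 16.3% of all features. DAN4 was also the 1 of 7 higher than in wild type, by 0.75 ± 0.16 (adjusted p = 0.0447), where 0.557% of all features differed. It was the 1 lower in the Rrm3 IP than on the arrays labelled rrm3 delete, by -1.13 ± 0.15 (adjusted p = 0.000634), where 1.94% of all features were lower. Among 7 regulators of hypoxic genes, CYC8, part of the Tup1-Cyc8 corepressor, was called in the Rrm3 IP at 0.59 ± 0.17 (adjusted p = 0.0225), 1 of 7 where 23.7% of all features were called. None of the 7 was called in the Pol2 IP of either strain or in a difference; their fitted ratios on the arrays labelled rrm3 delete ran from -0.18 (MOT3) to 0.41 (TUP1).

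Some intergenic features named for a PAU gene stood well above that gene on the arrays labelled rrm3 delete. The arrays hold 12 such features and none for PAU14, and the names do not give the side of the gene. On the arrays labelled rrm3 delete 4 of 12 were called higher, against 9.39% of all features, and 2 of those were higher than in wild type, against 0.557%.

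The largest was IYLR461W-0, named for PAU4. Its log2 ratio was 2.34, 2.09, 2.08 and 2.24 on arrays 040, 137, 183 and 239 labelled rrm3 delete, against 0.36, 0.37 and 0.38 on wild-type arrays 039, 086 and 230. On these arrays the groups lie far apart, and each is tight. The feature has no value on arrays 182 and 240 labelled rrm3 delete or on wild-type array 136. The difference was 1.81 ± 0.22 (SE; 3.52-fold; adjusted p = 0.00272). Without the flag filter it was 1.39 and was not called. The PAU4 ORF itself was at 0.30, 0.65, 0.23 and 0.50 on the same 4 arrays labelled rrm3 delete, so the neighbouring feature exceeded the gene by 1.44 to 2.04. In the Rrm3 IP the feature was at 0.20, -0.34, 0.29, -0.09 and 0.23 on arrays 031, 041, 088, 184 and 185, and lower than on the arrays labelled rrm3 delete by -2.13 ± 0.20 (adjusted p = 0.000107).

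IYNR076W, named for PAU6, ran from 0.57 to 2.30 on the 6 arrays labelled rrm3 delete (median 1.57), against 0.27, 0.01 and -0.85 on wild-type arrays 039, 086 and 230. Its lowest array was 182, of which most spots were flagged, and it was still above every wild-type array. The difference was 1.75 ± 0.27 (SE; 3.35-fold; adjusted p = 0.0102). It was no longer called without array 086 (1.73; adjusted p = 0.0752) or array 230 (1.62; adjusted p = 0.115). The PAU6 ORF had a median of 0.29 on the arrays labelled rrm3 delete, and the feature exceeded it on 6 of 6.

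For IYMR325W, named for PAU19, the 6 arrays labelled rrm3 delete lay between 1.20 and 1.77 (median 1.36), against 0.43, 0.79 and -0.35 on wild-type arrays 039, 086 and 230. Groups did not overlap, and the difference of 1.19 ± 0.28 missed the threshold (adjusted p = 0.0798). It was called without array 031 (adjusted p = 0.0373) and without array 088 (adjusted p = 0.0204), both of the Rrm3 IP. The Rrm3 IP itself was lower than the arrays labelled rrm3 delete at both features, by -1.84 ± 0.23 at IYNR076W (adjusted p = 0.000543) and -1.72 ± 0.24 at IYMR325W (adjusted p = 0.00108).

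The fourth feature called on the arrays labelled rrm3 delete, IYLR461W-1 (0.56; adjusted p = 0.0403), spread from -0.25 to 1.23 and lost its call in 11 alternatives. It was lowest on arrays 182 (-0.25) and 240 (-0.16), where IYLR461W-0 has no value. All values of the arrays labelled rrm3 delete lay above wild type at 4 of the 12 features, the 3 above and IYJL223C-1 of PAU1, where 4.82% of all features did so. None of the 12 is recorded as a failed product, and their median input percentiles ran from 22.7 (IYMR325W) to 97.8. The features of inner copies had fitted ratios from -0.14 (IYFL020C) to 0.05 (IYEL049W) on the arrays labelled rrm3 delete, without a call. The other features of end copies had no call either, at -0.10 (IYCR104W), 0.01 (IYLL064C), 0.15 (IYJL223C-0) and 0.25 (IYJL223C-1).

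In the Rrm3 IP, 1 of the 12 was called higher and 3 lower, against 11.0% and 12.7% of all features. IYJL223C-1 was higher at 0.52 ± 0.14 (SE; adjusted p = 0.0191), with values of 1.02, 0.47, 0.34, 0.73 and 0.12 on arrays 031, 041, 088, 184 and 185. IYCR104W of PAU3 (-0.69), IYAR020C-1 of PAU7 (-0.54) and IYLL064C of PAU18 (-0.49) were lower, and each was below 0 on all 5 arrays. IYCR104W was at -1.50 on array 031, where the PAU3 ORF read 1.22, so the gene and the feature named for it went opposite ways on that array.

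**Figure D4:**
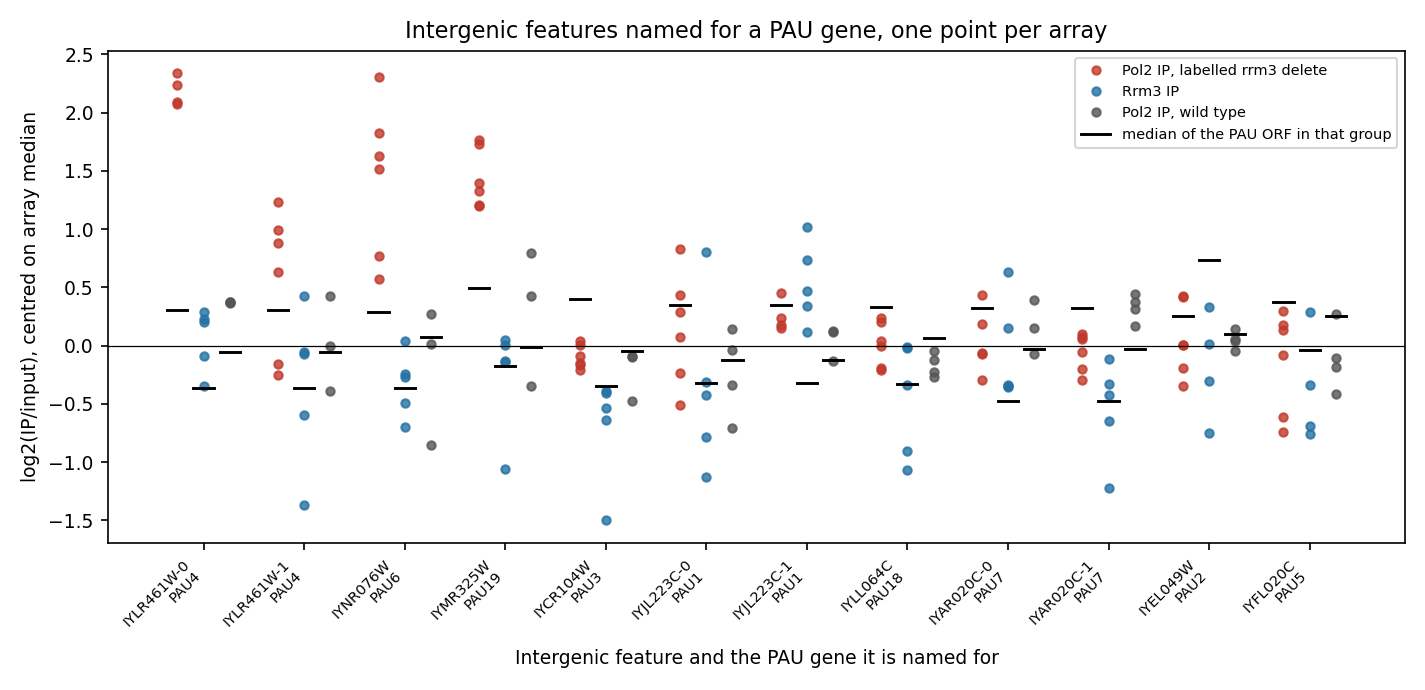
Log2 IP over input (y axis) for the 12 intergenic features named for a PAU gene (x axis), 1 point per array, with red for Pol2 arrays labelled rrm3 delete, blue for the Rrm3 IP and grey for wild type. Black bars give the median of the PAU ORF in the same group; at IYLR461W-0 the red points lie between 2.08 and 2.34 and the bar of PAU4 at 0.30.

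Genes around the PAU copies were counted from the 3 nearest ORFs on each side. On the arrays labelled rrm3 delete 13 of 49 were called higher, where 9.39% of all features were. Of the 49, 0 differed from wild type, where 0.557% of all features did. The calls include IMA3 (0.47) and IMA4 (0.64), 2 members of 1 gene family. They also include YJL225C, YIL177C, YLL067C, YLL066C and YRF1-4, at 0.60 to 0.77. Whether spots of such neighbours share DNA was not tested, so the calls may not be separate observations. The highest was YNR077C beside PAU6, at 1.55 (adjusted p = 0.000109), next to which PAU6 itself was at 0.29. Near the end copies PAU14 and PAU19, CSS1 (1.09) and SNO4 (0.99) were called. Near inner copies the calls were GLY1 (1.16) by PAU2, and LPD1 (0.42) and FRS2 (0.40) by PAU5. TCA17 by PAU2 was the lowest of the 49, at -0.71 without a call. All non-PAU ORFs among the outermost 10 of an arm had a median of 0.13. Of the 274 tested, 50 were called higher and 5 lower, against 1163 and 860 of all 12380 features. From wild type 1 of 274 differed, where 0.557% of all features did. On each of the 6 arrays labelled rrm3 delete this list had a median above 0, from 0.06 to 0.26, while the median end copy of PAU ran from 0.01 to 0.55.

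Among 5128 ORFs outside these lists, the 5 whose log2 ratios followed the mean of the members most closely were YIR040C (r = 0.96 over 13 arrays), COQ1 (0.95 over 13), CUP1-1 (0.91 over 13), YIR044C (0.91 over 15) and RAV1 (0.90 over 15). COQ1 codes for an enzyme of ubiquinone synthesis, CUP1-1 for the copper metallothionein and RAV1 for a subunit of a complex that assembles the vacuolar proton pump. By their systematic numbers YIR040C is next to PAU15 (YIR041W), and YIR044C lies further out on the same arm. PAU15 is 2 ORFs from the right end of chromosome IX. Without arrays 031 and 184 the 5 values of r were 0.74 to 0.89. The points share arrays and their scaling, and the 5 were picked as the highest of all, so the values only describe them.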

How the data were processed

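IP and input DNA of tagged strains were compared on 16 two-colour arrays, 15 of which have a group in the labels; array 231 has contradictory labels and entered no comparison. Per the file headers, the deposited intensity values are channel medians and local backgrounds per spot, beside codes (unit other) for spot quality and for PCR products that failed. The authors deposited log2 ratios per array in a value table, which followed the scanner values with r of at least 0.999. No source used here names the scanner, its software or the genome build.

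Background-subtracted medians were used as deposited. Spots were dropped where flagged or where a channel was not above 0, log2(IP/input) was averaged over spots of a name, and each array was centred on its median. Array 136 was read in the direction of the deposited table, since as labelled it correlated at -0.54 to -0.15 with the other arrays. Group means and a dye effect were fitted in 1 model with limma 3.58.1 (R 4.3.3, lmFit and eBayes), two-sided, with Benjamini-Hochberg adjustment over 12380 of 13059 features, those with values on 3 or more arrays in each group (2 or more where arrays were left out). The calculation was tested on simulated data. A feature measured on fewer arrays than its group holds was fitted on those it has, and nothing was imputed. The number of arrays limits the precision.

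The members and lists were chosen with earlier results of these data known. All members were named. Of other lists, those past the threshold and the highest or lowest were named for some comparisons and only counted for the rest. The 5 ORFs most correlated with the members' mean over at least 13 arrays were named too. Symbols and gene order came from the R64 reference, in which 5677 of 6247 ORF names were found. No sequence is printed, as none was given. Alternatives covered background, flags, failed products, dim spots, loess, the direction of array 136, the deposited table, the dye term, the groups fitted and arrays left out. A PNG plot shows each main set of values (Python 3.11.15, matplotlib 3.10.9).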

Additional observations from a re-analysis of the deposited data

Results flagged for a closer look

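Of 53 groups of 4 to 10 arrays, 3 held an array far from the others, and chance alone gives about 1 in 20. PAU6 in the Rrm3 IP was at 1.28 on array 031, where the other 4 arrays lay between -0.49 and -0.20. IYCR104W in the Rrm3 IP was at -1.50 on array 031, with the others between -0.64 and -0.39. IYMR325W in the Rrm3 IP was at -1.06 on array 088, with the others between -0.14 and 0.04. At 2 intergenic features the Pol2 IP differed between the arrays labelled rrm3 delete and wild type, by 1.81 at IYLR461W-0 and 1.75 at IYNR076W (limma, adjusted p = 0.00272 and 0.0102).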

How the results depend on the processing

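No call or called value changed direction in any alternative tried. The number of members called on the arrays labelled rrm3 delete, 0 of 10, became 5 without arrays 031 and 041 (27.3% of all features called, against 16.3%) and 6 with that group fitted alone (31.1%), and lay between 0 and 5 when 1 array was left out. In the Rrm3 IP the 1 call became 2 without background subtraction, where 1529 of 12399 features were called higher and 1683 lower. It became 0 with failed products left out, which leaves out PAU2 itself (1171 higher and 1363 lower of 11622 features). With arrays of 1 dye orientation it was 0 (IP in Cy5; 5.67% of all features called, against 23.7%). Without arrays 031 and 041 it was 3 (1598 higher and 1561 lower of 12730 features). With the group fitted alone it was 0, where limma called 0 of 12822 features. With 1 array left out the number lay between 1 and 6. Rrm3 IP minus the arrays labelled rrm3 delete, with 0 calls, had 2 without arrays 031 and 041 (3.09% of all features called) and 0 to 6 with 1 array left out. The other 3 comparisons had 0 calls in all alternatives. End minus inner copies in the Rrm3 IP, -0.24, was -0.76 without arrays 031 and 041. With 1 array left out it lay between -0.50 and -0.22 there, between -0.007 and 0.085 on the arrays labelled rrm3 delete, and between -0.33 and -0.11 in wild type. IYLR461W-0 differed from wild type in 28 of 30 settings (1.39 to 1.86), not without the flag filter (1.39; adjusted p = 0.130) or with IP in Cy5 alone (1.86; adjusted p = 0.199), and IYNR076W in 26 of 30 (1.56 to 1.86). The causes were not tested, except that fewer arrays enter when arrays are left out. No paired analysis was made because the labels do not tie arrays to extracts. Spots of the failed product of PAU2 were mostly dim (median input percentile 10.2), which limits its value.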

Other observations

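Array 231, a Pol2 IP whose labels contradict each other on the deletion, had the 10 members between -0.26 (PAU7) and 0.27 (PAU2), with a median of 0.11 over the 7 end copies and 0.11 over the 3 inner ones. On that array IYLR461W-0 was at 0.15, IYNR076W at 0.21 and IYMR325W at 0.28, each below every array labelled rrm3 delete. The RRM3 feature ranked at percentile 20.9 of its input signal.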
